A study of Neurospora crassa with 6 samples.

Results

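The alternative oxidase gene of Neurospora crassa, aod-1 (NCU07953), and the genes of its transcription factors, aod-2 (NCU03352) and aod-5 (NCU03938), are described here across darkness and a pair of light intensities. They are 3 of the 10559 genes in the deposited table and were taken by their gene names. aod-1 was selected on its lower RPKM in light than in darkness in these same 6 libraries, and aod-2 and aod-5 as its regulators, so the levels of all 3 genes are given as a description, without a test. Tests are given for other genes of respiration and carbon use, in lists chosen with earlier results of these data known.

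The libraries were made from polyadenylated RNA of hyphae, from a strain labelled delta_cry,delta_vvd,delta_wc-1, a genotype that all samples share. It lacks by label the cryptochrome and the blue-light receptors VIVID and White Collar-1. The groups are darkness, 1000 lux and 5000 lux, with 2 libraries each, and the light condition was applied for 45 min in medium with 2% glucose after growth on minimal slants for 2 weeks. The labels name neither separate cultures behind the libraries nor a strain with these genes intact, so p-values cover only the spread between these samples.

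Alternative oxidase sits in the inner mitochondrial membrane and passes electrons from ubiquinol directly to oxygen. Electrons that take this route skip complexes III and IV of the cytochrome chain, which makes respiration resistant to cyanide and saves less energy. In N. crassa the gene is known to be induced when the cytochrome chain is impaired. AOD2 and AOD5 are zinc cluster proteins that bind together upstream of aod-1 and are needed for this induction. In Podospora anserina the orthologous factors also control genes of gluconeogenesis.

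The values are RPKM, reads per unit of gene length and library depth. Levels of different genes are compared on that scale only, since the annotation and the counter behind it are not given. Library depth, recovered from the steps between RPKM values, ranged from 21420000 to 28260000 reads. The 3 genes rested on 369 to 1252 reads per library, which gives a counting SD of 2.8% to 5.2% of a level; this covers counting error only. None of the 3 overlaps another gene in the reference gene table. All libraries had reads in the genes that the label gives as deleted. These were 6.31 to 9.04 RPKM for wc-1, 1.95 to 3.44 for vvd and 1.59 to 2.56 for cry. Mid-rank genes of the libraries stood at 7.49 to 8.24 RPKM, so wc-1 was near that level and vvd and cry lay below it. A wc-1 transcript at this level does not bear out its labelled deletion, and the genotype was not tested otherwise. The label hyphae was not checked against a marker list. eas, the hydrophobin gene of the conidial surface, had 212 and 173 RPKM in the dark libraries, 70.6 and 76.1 in those from 1000 lux, and 169 and 231 in those from 5000 lux.

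aod-1 had 25.8 and 23.7 RPKM in the dark libraries. It had 8.69 and 9.23 RPKM at 1000 lux and 13.2 and 12.5 RPKM at 5000 lux. The groups did not overlap, with darkness highest, 5000 lux between and 1000 lux lowest. Such separation was common. Against darkness, 28.5% of tested genes were lower without overlap at 1000 lux and 23.1% at 5000 lux. Between the lights, 29.4% were higher without overlap at 5000 lux. Each step in that order was larger than the spread within the groups, whose means were 24.7 ± 1.51 (dark), 8.96 ± 0.384 (1000 lux) and 12.8 ± 0.513 RPKM (5000 lux; SD, n = 2 each). The conidial gene eas was also lowest in the 1000 lux libraries but overlapped between darkness and 5000 lux; its part in the aod-1 and aod-5 levels was not tested. In these bulk samples, fewer cells with the transcript and less transcript per cell cannot be told apart. The level at 1000 lux was 0.362 of the dark level, and the level at 5000 lux was 0.519 of it. Ranked against the whole table, aod-1 stood above 76.7% and 76.3% of genes in the dark libraries, 52.1% and 53.7% in those from 1000 lux, and 61.3% and 59.9% in those from 5000 lux. The oxidase transcript thus stood near the middle of the table at 1000 lux and well above it in darkness.

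aod-2, one of the activator genes, was lowest in darkness, where aod-1 was highest. Its dark libraries had 6.14 and 6.07 RPKM, its 1000 lux libraries 10.9 and 7.95 RPKM, and its 5000 lux libraries 9.12 and 10.5 RPKM. All 4 light libraries lay above both dark libraries. Of all tested genes, 30.3% were higher without overlap at 1000 lux and 29.8% at 5000 lux, against darkness. The group means were 6.11 ± 0.0525 (dark), 9.43 ± 2.09 (1000 lux) and 9.80 ± 0.956 RPKM (5000 lux; SD, n = 2 each). The light groups overlapped, and their means did not differ beyond their spread. The mean level was 1.54 times the dark level at 1000 lux and 1.60 times at 5000 lux.

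aod-5, the gene of the partner factor, was the most even of the 3. Its dark libraries had 8.85 and 8.22 RPKM, its 1000 lux libraries 5.56 and 7.31 RPKM, and its 5000 lux libraries 8.17 and 7.72 RPKM. Both libraries at 1000 lux lay below the others. Of all tested genes, 28.5% were lower without overlap at 1000 lux against darkness. The gap between the lower dark library and the higher 5000 lux library was smaller than the spread within either group. The group means were 8.53 ± 0.444 (dark), 6.44 ± 1.24 (1000 lux) and 7.95 ± 0.32 RPKM (5000 lux; SD, n = 2 each). The level at 1000 lux was 0.754 of the dark level, and the level at 5000 lux was 0.931 of it.

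**Figure D1:**
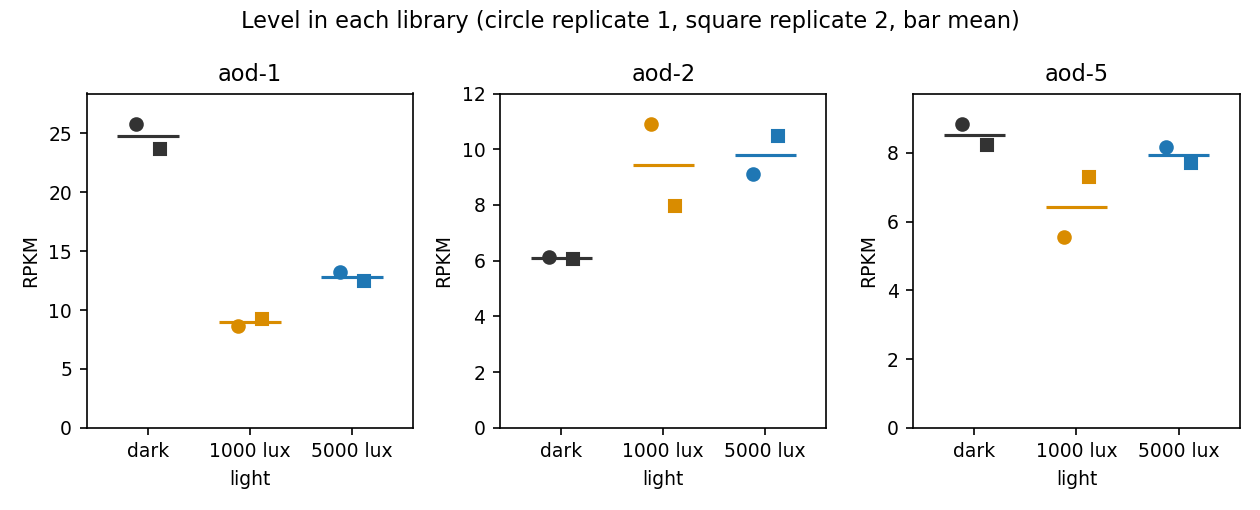
RPKM of aod-1, aod-2 and aod-5 (vertical axes, each starting at 0) in darkness, at 1000 lux and at 5000 lux; circles are replicate 1, squares replicate 2 and bars the mean of 2 libraries. aod-1 is highest in darkness and lowest at 1000 lux, aod-2 is lowest in darkness, and aod-5 is lowest at 1000 lux.

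The pair of libraries at 1000 lux differed in the activator genes in opposite directions. Replicate 1 had more aod-2 and less aod-5 than replicate 2, with 663 against 549 recovered reads for aod-2 and 630 against 941 for aod-5, at depths of 22810000 and 25930000 reads. aod-1 was nearly even in the same libraries, at 371 and 448 reads.

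The order of the 3 genes within a library changed with light. In both dark libraries aod-1 was highest, aod-5 next and aod-2 lowest, and in both 5000 lux libraries aod-1 was highest, aod-2 next and aod-5 lowest. At 1000 lux aod-5 was again lowest, with aod-2 above aod-1 in replicate 1 and below it in replicate 2. The ratio of aod-1 to aod-2 was 4.20 and 3.90 in the dark libraries, 0.797 and 1.16 in those from 1000 lux, and 1.45 and 1.19 in those from 5000 lux. The ratio of aod-2 to aod-5 was 0.694 and 0.738 in the dark libraries, 1.96 and 1.09 in those from 1000 lux, and 1.12 and 1.36 in those from 5000 lux. In RPKM, aod-5 thus exceeded aod-2 in the dark libraries and lay below it in every light library.

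**Figure D2:**
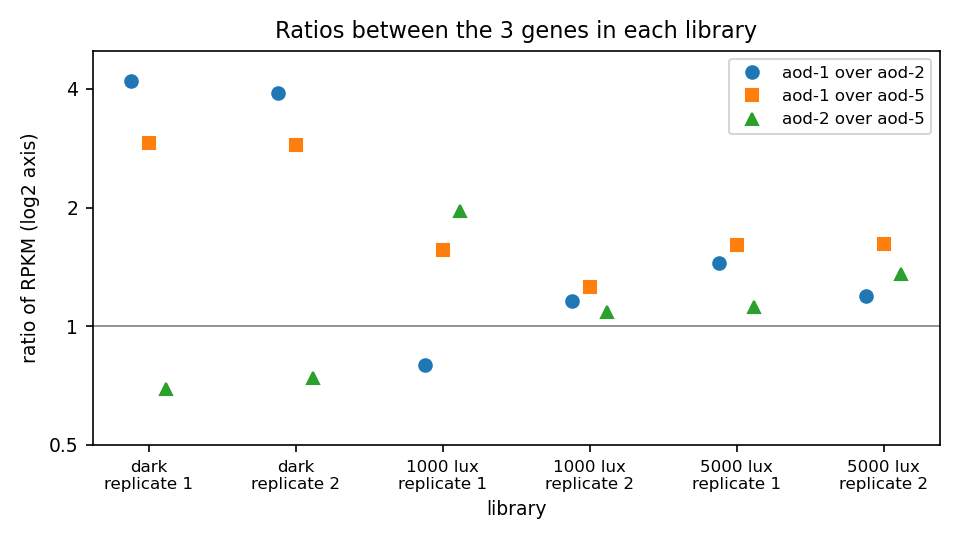
Ratios of RPKM between the 3 genes (vertical axis, log2 scale) in each of the 6 libraries; circles show aod-1 over aod-2, squares aod-1 over aod-5 and triangles aod-2 over aod-5, and the line marks a ratio of 1. The aod-2 to aod-5 ratio lies below 1 in both dark libraries and above 1 in the 4 light libraries.

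On the scale of log2(RPKM + 1), aod-1 differed by -1.37 (SE 0.10) at 1000 lux against darkness and by -0.90 (SE 0.10) at 5000 lux against darkness. Of the 7841 genes tested, 9 had a lower value than aod-1 in the first comparison and 26 in the second. aod-1 was selected on its lower level in light in these same libraries, so a low rank follows from the selection. Replicates that did not overlap and were lower in light made up 28.5% of tested genes at 1000 lux and 23.1% at 5000 lux, against darkness. Those that were higher in light made up 30.3% and 29.8%, so the lack of overlap alone sets no gene apart. aod-2 differed by 0.54 (SE 0.15) and 0.60 (SE 0.15), above 94.8% and 96.4% of tested genes. aod-5 differed by -0.37 (SE 0.13) and -0.09 (SE 0.13), above 9.9% and 29.7% of tested genes. Both comparisons use the same 2 dark libraries, so the values at 1000 and 5000 lux are not independent of each other.

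Between 5000 lux and 1000 lux, aod-1 was higher at 5000 lux by 0.47 (SE 0.10), above the value of 97.4% of tested genes. aod-2 differed by 0.06 (SE 0.15) and aod-5 by 0.28 (SE 0.13), above 58.0% and 90.2% of tested genes. Without 1000 lux replicate 2 the aod-2 difference was -0.14, without 5000 lux replicate 2 it was -0.03, and without 1000 lux replicate 1 it was 0.27, so its direction rests on single libraries. The aod-5 difference at 5000 against 1000 lux was 0.11 without 1000 lux replicate 1 and 0.45 without 1000 lux replicate 2. At 1000 lux against darkness, leaving out the same libraries gave -0.20 and -0.54 for aod-5 and 0.33 and 0.74 for aod-2. At 5000 lux against darkness, aod-5 was at -0.04 without dark replicate 1, -0.14 without dark replicate 2, -0.13 without 5000 lux replicate 1 and -0.05 without 5000 lux replicate 2.

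Genes around the oxidase in the respiratory chain and in carbon use were then tested with limma over all 7841 genes, with p-values adjusted over all of them. At 1000 lux against darkness 16.9% of all tested genes were called at an adjusted p under 0.05, with 9.13% higher and 7.82% lower. At 5000 lux against darkness 9.62% were called, 6.70% higher and 2.92% lower. With median-of-ratios scaling 525 were higher and 371 lower at 5000 lux against darkness, where the values as deposited gave 525 and 229. Between 5000 and 1000 lux 3.02% were called, 1.66% higher and 1.36% lower, or 130 and 107 genes; with median-of-ratios scaling the numbers were 138 and 150. Of 73 tested list genes, 7 were higher and 7 lower at 1000 lux, and 3 higher and 1 lower at 5000 lux, both against darkness. Between 5000 and 1000 lux 2 were higher and 1 lower. At 1000 lux against darkness these shares lie near those of all genes, and in the other comparisons the counts are too small to set beside them. Of the 7 lower list genes at 1000 lux, 5 were in the carbon list of 8 tested genes, which was made with earlier results known. Leaving out 1000 lux replicate 1 left 1 higher and 3 lower list genes at 1000 lux. Leaving out dark replicate 1 left 3 and 4, and leaving out dark replicate 2 left 4 higher. At 5000 lux against darkness 0 were higher without 5000 lux replicate 1, and 2 were lower without either 1000 lux library. Between the lights, leaving out a light library gave 0 to 1 higher, and leaving out a dark library gave 5 higher and 2 lower.

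The other genes that let electrons bypass a complex held no call. The second oxidase gene, aod-3 (NCU04874), had 0.769 and 0.747 RPKM in the dark libraries, 0.262 and 0.352 in those from 1000 lux, and 0.316 and 0.426 in those from 5000 lux, with 19 to 67 reads per library. It was below the minimum of 1 RPKM in 2 libraries and was tested only with no filter, where it did not pass against darkness at 1000 lux (-0.43, limma adjusted p = 0.0716) or 5000 lux (-0.36, limma adjusted p = 0.142; SE 0.12 each). In each light library aod-3 was below both dark libraries, at a level far under that of aod-1. Of the 4 genes of alternative NADH dehydrogenases, which feed electrons to ubiquinone without complex I, 0 passed limma in any comparison. At an unadjusted p under 0.05 the count was 0 in both comparisons with darkness and 3 higher at 5000 against 1000 lux, where 9.42% of all tested genes were higher and 6.16% lower. nde-1 (overlapping NCU05226), nde-2, nde-3 and ndi-1 differed by -0.04, -0.08, 0.07 and -0.27 at 1000 lux against darkness and by 0.23, 0.18, -0.03 and 0.13 at 5000 lux against darkness. ndi-1 was the lowest of them at 2.75 ± 0.193 (dark), 2.15 ± 0.653 (1000 lux) and 3.11 ± 0.0146 RPKM (5000 lux; SD, n = 2 each).

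Complex I, the proton-pumping NADH dehydrogenase, had 3 called genes at 1000 lux. Of 29 tested subunit genes 3 rose at 1000 lux against darkness and 0 fell, beside 9.13% and 7.82% of all tested genes. At an unadjusted p under 0.05, 13 were higher and 0 lower, where 16.4% and 14.6% of all tested genes were. The median log2 difference was 0.168, beside 0.001 over all tested genes. nuo9.8 (overlapping NCU04780) averaged 209 ± 0.804 RPKM at 1000 lux and 160 ± 2.86 in darkness (SD, n = 2 each), a difference of 0.38 (SE 0.08, limma adjusted p = 0.01165). nuo21.3c and nuo21.3b differed by 0.36 and 0.27 (limma adjusted p = 0.01892 and 0.03954). All 3 calls were lost without 1000 lux replicate 1, those of nuo21.3c and nuo21.3b also without dark replicate 1, and that of nuo21.3b without each of the 6 libraries. At 5000 lux 0 of the 29 passed limma against darkness, with 3 higher and 0 lower at an unadjusted p under 0.05 (15.3% and 9.60% of all tested genes) and a median of 0.050 beside 0.023 over all tested genes.

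The cytochrome branch that the oxidase skips held no called gene among those listed. In complex III and cytochrome c, 0 of 5 passed limma in any comparison; at an unadjusted p under 0.05, 1 was higher and 1 lower at 1000 lux against darkness, and 0 in the other comparisons, beside shares of 16.4% and 14.6% of all tested genes at 1000 lux. At 1000 lux against darkness, cyt-1 (cytochrome c1), fes-1 (the Rieske iron-sulfur protein), qcr7 and qcr8 differed by -0.12, -0.07, -0.08 and -0.18, and cyc-1 (cytochrome c) by 0.32. At 5000 lux against darkness the same genes ranged from -0.13 to 0.14. Of 4 genes listed for complex IV by symbol alone, 0 passed limma. At an unadjusted p under 0.05, 1 of them was lower at 1000 lux against darkness and 0 in the other comparisons. In this list cox-4 (overlapping NCU05688), cox-6, cya-4 and cya-5 differed by 0.01, 0.09, -0.23 and 0.08 at 1000 lux against darkness. At 5000 lux against darkness they differed by -0.04, -0.06, -0.18 and -0.01. The ATP synthase genes atp-1 and atp-2 differed by -0.22 and -0.27 at 1000 lux (limma adjusted p = 0.07714 and 0.08696) and by -0.04 and -0.16 at 5000 lux, against darkness. In level aod-1 lay below most of this branch, since the median RPKM over the complex III and cytochrome c genes was 125 to 136 in the 6 libraries.

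Genes named cyt for cytochrome-deficient mutants, the kind of defect that is known to induce the oxidase, were called in both directions. Of 8 tested, 2 rose and 1 fell at 1000 lux, and 3 rose and 0 fell at 5000 lux, against darkness. Of all tested genes, 9.13% rose and 7.82% fell at 1000 lux, and 6.70% rose and 2.92% fell at 5000 lux. cyt-18 encodes the mitochondrial tyrosyl-tRNA synthetase, which also aids intron splicing. It had 13.9 and 12.0 RPKM at 1000 lux and 13.6 and 13.0 RPKM at 5000 lux, against 7.80 and 8.05 RPKM in darkness. The light and dark libraries did not overlap. Of all tested genes, 30.3% were higher without overlap at 1000 lux and 29.8% at 5000 lux. The log2 differences of cyt-18 were 0.64 at 1000 lux and 0.68 at 5000 lux (SE 0.11 each), with limma adjusted p = 0.0041 and 0.005649. cyt-19 (overlapping NCU07669), an RNA helicase of mitochondrial introns, rose by 0.42 and 0.68 (limma adjusted p = 0.02287 and 0.004785). cyt-2, the cytochrome c heme lyase gene, rose at 5000 lux by 0.61 (limma adjusted p = 0.01331). cyt-20 fell by 0.41 on the log2 scale at 1000 lux (limma adjusted p = 0.01625). The cyt-18 and cyt-19 calls were lost without replicate 1 of the light group compared, and cyt-19 at 1000 lux also without either dark library. The cyt-2 call was lost without dark replicate 2 or either 5000 lux library, and the cyt-20 call without dark replicate 2 or 1000 lux replicate 1.

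**Figure D3:**
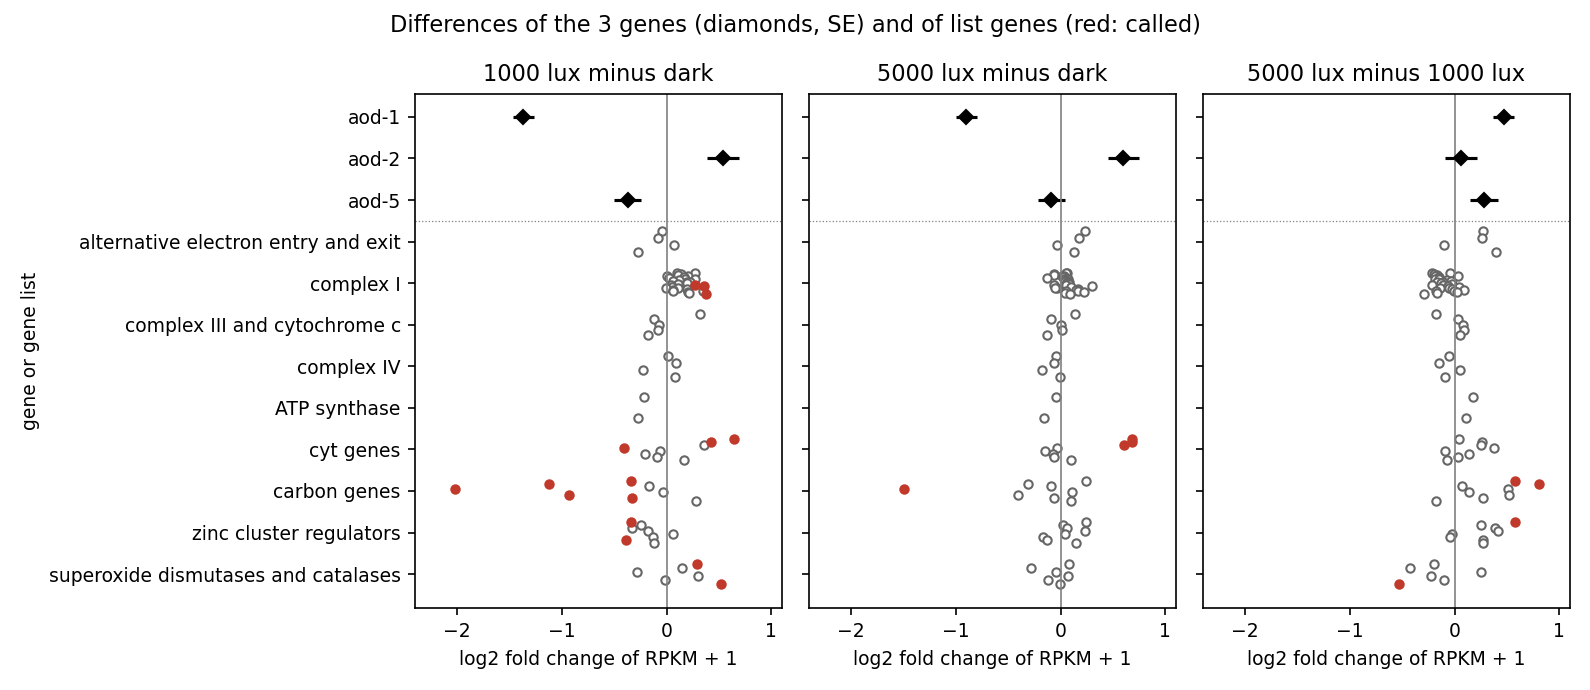
Differences on the log2(RPKM + 1) scale (horizontal axes) of aod-1, aod-2 and aod-5 (diamonds with SE, not tested) and of the tested genes of each list (circles, filled red where limma called them) in the 3 comparisons. aod-1 lies at -1.37 and -0.90 against darkness, and among the list genes acu-6 lies lower, at -2.02 and -1.50.

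Among genes of carbon use, 5 of 8 fell and 0 rose at 1000 lux against darkness, beside 7.82% and 9.13% of all tested genes. The median was -0.335 beside 0.001 over all tested genes. At 5000 lux 1 of 8 fell, beside 2.92% of all tested genes, with a median of -0.077 beside 0.023. The 5 include acu-15, which is also counted in the list of zinc cluster regulators. The carbon list, like the others, was made with earlier results of these data known. The fall of acu-6 (phosphoenolpyruvate carboxykinase, a step of gluconeogenesis) was among them. The counts of the list are therefore not independent evidence of a direction. acu-6 had 7.82 and 9.25 RPKM at 1000 lux and 14.0 and 11.3 RPKM at 5000 lux, against 37.0 and 37.9 RPKM in darkness. In darkness its level exceeded that of aod-1, and at 1000 lux the pair were at a similar level. fbp-1, the gene of the other enzyme peculiar to gluconeogenesis in the list, had 8.01 ± 0.815 RPKM at 1000 lux and 6.42 ± 0.115 in darkness (SD, n = 2 each) and did not pass (0.28, SE 0.15, limma adjusted p = 0.2317). acu-3 and acu-9 of the glyoxylate cycle fell at 1000 lux (-1.12 and -0.93, limma adjusted p = 0.000452 and 0.001302), as did cre-1, the carbon catabolite repressor gene (-0.33, limma adjusted p = 0.04982). Against 1000 lux, acu-3 rose at 5000 lux (0.81, SE 0.12, limma adjusted p = 0.008581), a call lost without replicate 1 of either light group. The cre-1 call was lost without dark replicate 1, 1000 lux replicate 1 or either 5000 lux library.

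A list of zinc cluster regulators, from the protein family of AOD2 and AOD5, was also tested. It was drawn by symbol and does not stand for the family. Of 9 listed genes with a value 8 were tested, and at 1000 lux against darkness 2 fell and 0 rose, where 7.82% of all tested genes fell. acu-15, the activator gene of acetate use, averaged 14.8 ± 0.331 RPKM at 1000 lux and 19.0 ± 2.07 in darkness (SD, n = 2 each), a difference of -0.34 (SE 0.10, limma adjusted p = 0.04674). sah-2 (overlapping NCU14166) differed by -0.39 (SE 0.09, limma adjusted p = 0.01802). At 5000 lux 0 of 8 passed limma against darkness, with 1 higher at an unadjusted p under 0.05, and against 1000 lux acu-15 alone rose, by 0.58 (SE 0.10, limma adjusted p = 0.01707). At 1000 lux against darkness, 8 tested genes of the list ranged from -0.39 to 0.06, below the 0.54 of aod-2. The acu-15 call at 1000 lux was lost without each library except dark replicate 2, and that at 5000 lux without each of the 4 light libraries. The sah-2 call was lost without dark replicate 1 or either 1000 lux library.

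Alternative oxidase is known to limit the leak of electrons to superoxide, and genes that remove reactive oxygen were listed for that reason. At 1000 lux against darkness 2 of 6 rose and 0 fell, beside 9.13% and 7.82% of all tested genes. sod-2, the mitochondrial manganese superoxide dismutase gene, had 41.6 and 40.9 RPKM at 1000 lux, against 29.5 and 27.5 RPKM in darkness, a difference of 0.52 (SE 0.09, limma adjusted p = 0.004595). Its order was thus the reverse of that of aod-1 between these groups, and no single library decided this call. At 5000 lux sod-2 had 27.0 and 29.6 RPKM, a difference of -0.53 from 1000 lux (SE 0.09, limma adjusted p = 0.01495) and of -0.01 from darkness. The sod-2 call against 1000 lux was lost without either 1000 lux library and without 5000 lux replicate 1. The catalase gene cat-1 rose at 1000 lux (0.29, limma adjusted p = 0.04439), a call lost without each of the 6 libraries. sod-1, cat-2, cat-3 and cat-4 differed by -0.02, 0.15, -0.28 and 0.30 at 1000 lux against darkness and did not pass.

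The genes next to the 3 in the reference gene table were also compared. NCU07952, beside aod-1, fell at 1000 lux against darkness (-0.46, SE 0.13, limma adjusted p = 0.03603) and was at -0.42 at 5000 lux (limma adjusted p = 0.06759). pod-1, on the other side, differed by -0.22 and 0.03. NCU03354, beside aod-2, averaged 1.97 ± 0.331 RPKM at 1000 lux and 2.21 ± 0.0666 at 5000 lux, against 1.05 ± 0.11 in darkness (SD, n = 2 each). Its differences of 0.53 and 0.65 (SE 0.18 each) did not pass limma, at adjusted p = 0.07 and 0.05005. NCU03937, beside aod-5, differed by -0.01 and -0.16. NCU03351, on the other side of aod-2, was below the minimum with a mean of 0.0944 RPKM in darkness, and NCU03940, on the other side of aod-5, was at 0 in all libraries; neither was tested.

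The genes with the most similar pattern were ranked by Pearson r of log2(RPKM + 1) over the 6 libraries, among tested genes whose group means spanned at least the share of 0.5 of the member's own range. The points share 3 conditions, so r mostly follows the order of the condition means; it is given as a description. For aod-1, 555 genes met the range and 45 of them had r of at least 0.95. The 10 most similar were NCU06912 (r = 0.996), acu-6 and NCU04481, NCU04569, NCU04118, NCU07884, arg-5, lys-3, trp-3 and NCU06435 (r = 0.986 for the last). NCU04481, NCU04569, NCU07884 and trp-3 overlap other genes. NCU06912 had 36.0 and 35.2 RPKM at 1000 lux and 45.2 and 42.2 RPKM at 5000 lux, against 74.3 and 68.3 RPKM in darkness. arg-5, lys-3 and trp-3, which encode enzymes of arginine, lysine and tryptophan synthesis, differed by -0.92, -0.96 and -0.88 at 1000 lux against darkness. acu-6 was the only one of the 10 with a larger difference than aod-1.

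**Figure D4:**
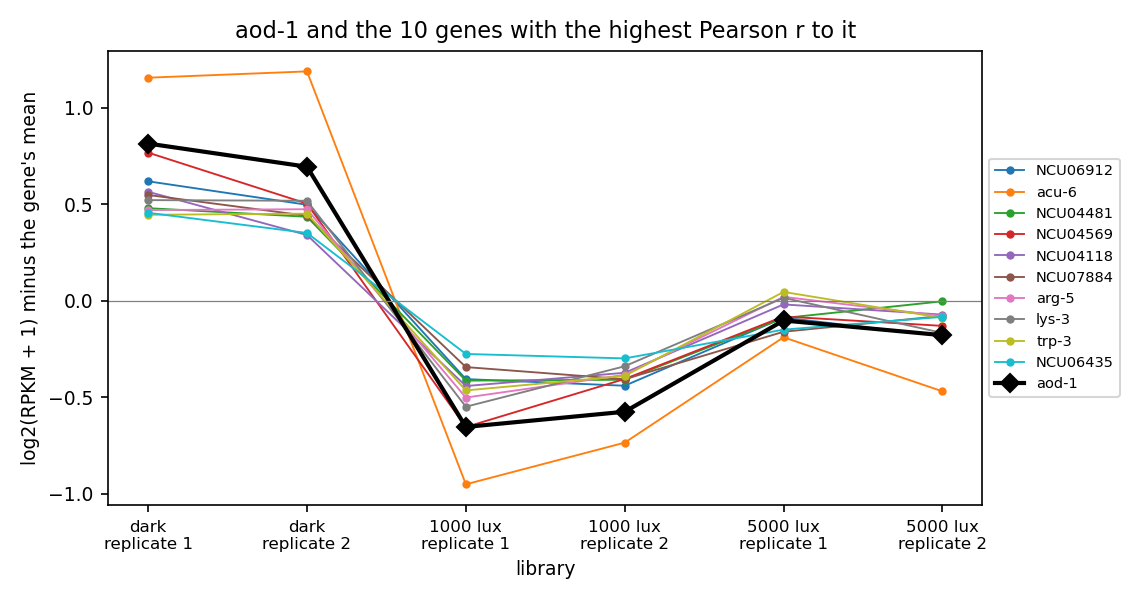
log2(RPKM + 1) minus each gene's mean over the 6 libraries (vertical axis) for aod-1 (black diamonds) and the 10 genes with the highest Pearson r to it; lines join the libraries of a gene and do not mark time. All 11 profiles are highest in the dark libraries and lowest at 1000 lux, and acu-6 spans the widest range.

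For aod-2 the 5 most similar genes were NCU06214, NCU08295, NCU06470, NCU09381 and NCU02401 (r from 0.989 to 0.993), none with a symbol of its own; the last 3 overlap other genes. NCU06214 had 48.9 and 35.3 RPKM at 1000 lux and 42.7 and 46.4 RPKM at 5000 lux, against 28.4 and 26.1 RPKM in darkness. It shared with aod-2 the high value of 1000 lux replicate 1. For aod-5 they were NCU05391, uvs-3, NCU05029, NCU06345 (overlapping NCU06346) and mus-41 (r from 0.976 to 0.988). The r between the members themselves was -0.83 for aod-1 and aod-2, 0.78 for aod-1 and aod-5, and -0.69 for aod-2 and aod-5. As a description of these 6 libraries, r of the oxidase gene was thus positive with aod-5 and negative with aod-2. The 5000 lux level was 0.519 of the dark level for aod-1 and 0.931 of it for aod-5.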

How the data were processed

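The values are RPKM as deposited by the authors, in 1 table whose columns were matched to samples by title. Per the submitters' processing notes, CASAVA 1.8 and HISAT (version not given in the sources used here) were among the tools; their roles, the build, the annotation, the counter and its strand setting are likewise not given. Of 10559 genes, 10526 were matched to the NC12 reference gene table (RefSeq), used for symbols, neighbours and overlaps only. Depth and reads were recovered from the RPKM steps (whole within 0.005 reads plus a relative 3e-07), for 9773 of 9773 genes above 0; the smallest whole solution was taken.

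Genes with at least 1 RPKM in 2 libraries, 7841 in all, were fitted in R 4.3.3 by limma (version 3.58.1), on log2(RPKM + 1), a scale that understates changes of low genes, with a variance trend and all 3 groups (residual degrees of freedom 3, prior 6.87). Calls are two-sided, at a Benjamini-Hochberg adjusted p under 0.05 over all tested genes. The fit was tested on simulated data. The members and lists were chosen with earlier results of these data known. Named were, in each list, up to 4 called genes per comparison by adjusted p and every gene of lists with 6 or fewer, and the most similar genes by r. The complex II list found 0 genes by symbol and was not analysed here. Alternatives were other pseudocounts, low-value filters, scalings, no variance trend, only the groups compared, a replicate block, and leaving out each library. Figures used Python 3.11.15, pandas 2.3.3 and matplotlib 3.10.9.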

Additional observations from a re-analysis of the deposited data

How the results depend on the processing

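No alternative turned the direction of aod-1 in any comparison. At 1000 lux against darkness its log2 difference was -1.45 with a pseudocount of 0.1 RPKM and -1.09 with 5 RPKM. With 5 RPKM the differences against darkness at 5000 lux were -0.74 for aod-1 and 0.41 for aod-2, and aod-1 differed by 0.35 between 5000 and 1000 lux. aod-5 at 5000 lux against darkness was -0.16 with quantile normalization.

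Without each library in turn, aod-1 ranged from -1.43 to -1.31 at 1000 lux and from -0.96 to -0.84 at 5000 lux against darkness, and from 0.43 to 0.51 between the lights. aod-2 ranged from 0.33 to 0.74, 0.51 to 0.69 and -0.14 to 0.27, and aod-5 from -0.54 to -0.20, -0.14 to -0.04 and 0.11 to 0.45, in the same order of comparisons.
Over all tested genes, the calls at 1000 lux against darkness ranged from 238 to 660 higher and 185 to 622 lower. At 5000 lux against darkness they ranged from 94 to 525 higher and 35 to 229 lower, and between the lights from 1 to 215 higher and 18 to 141 lower. Among list genes the ranges were 1 to 8 higher and 3 to 6 lower, 0 to 3 and 1 to 2, and 0 to 5 and 0 to 2. Of 21 calls of list genes, 5 were kept without each library: acu-6 in both comparisons with darkness, and acu-3, acu-9 and sod-2 at 1000 lux. A fit without a library of the group has fewer samples and less power.

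Calls over all genes at 5000 lux against darkness were 340 higher and 123 lower with no filter, 337 and 142 with no variance trend, and 371 lower with either other scaling. Between the lights they were 42 and 47 with no filter, 15 and 27 with no variance trend, and 204 higher with only the groups compared.
Among list genes at 1000 lux against darkness, 3 were higher and 3 lower with no variance trend, and 11 lower with quantile normalization. At 5000 lux against darkness 2 were lower with either other scaling or with only the groups compared. Between the lights, higher calls were 1 with no filter, 4 with at least 5 RPKM or only the groups compared, and 0 with no variance trend; lower calls were 0 with no variance trend, and 2 with at least 5 RPKM, either other scaling, only the groups compared or the replicate block. No called list gene turned direction in any alternative.

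The replicate numbers did not pair the libraries: deviations of same-numbered libraries correlated at 0.028, -0.087 and 0.052 between groups. With the replicate block the cre-1 call at 1000 lux was lost at -0.33. Of the genes most like each member, 3 to 7 of 10 for aod-1, 0 to 3 of 5 for aod-2 and 0 to 2 of 5 for aod-5 were shared without each library in turn. With either other scaling 3 of 5 were shared for aod-2, and for aod-5 3 of 5 with a pseudocount of 5 RPKM or median-of-ratios scaling. The lists of similar genes therefore depend on single libraries. Depth limits aod-3, whose counting SD was 12.2% to 22.9%, more than the other 3 aod genes.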
